A study of Arabidopsis thaliana with 12 samples.

Results

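In seedlings of Arabidopsis thaliana from mutant lines of SmEb, 48 of 33559 genes had less transcript than in the wild type both without and with salt. SmEb is a protein of the Sm ring, the core of the small nuclear ribonucleoproteins that remove introns from pre-mRNA. The genes were chosen from the deposited FPKM (fragments per kilobase of transcript, scaled to the library's total) on the scale log2(FPKM + 1). A gene entered the set when its mean over 12 libraries was at least 2 FPKM and when the group means of smeb-1 and of smeb-2 each lay at least 0.7 below Col-0, in control and again in salt. Of 17837 genes with that mean level, 48 met this rule, and 66 met its mirror image by being higher in smeb. SmEb and 2 further genes had been left out by name. Since the differences between smeb and Col-0 chose the members, they are given below as a description with no test.

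The plants were whole seedlings 12 days old in the Col-0 background. The wild type Col-0 and the mutant lines smeb-1 and smeb-2 were each sampled untreated and after 6 h of 200 mM NaCl, which gave 6 groups of 2 libraries. The kind of mutation in each line is not given in the sources used here. The description field of the treated samples reads Cd where title and treatment read salt, and salt is used here. The untreated seedlings may have been taken at 0 or at 6 h, so that time of day and salt cannot be told apart where treatments are compared. Libraries are named here by group and by the digit, 0 or 1, that ends the column name. No source says that the libraries of a group came from separate cultures, so the tests see only how far these samples scatter, which may be technical.

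SmEb transcript was at 58.9 and 55.1 FPKM in Col-0 control and at 73.3 and 76.1 in Col-0 salt. It lay between 22.9 and 27.6 in the 4 smeb-1 libraries and between 1.92 and 6.24 in those of smeb-2, below every Col-0 library. FPKM summed to between 827553 and 848257 per library in control and to between 738721 and 776714 in salt. Relative depth, read from how finely low values step, ran from 0.819 to 1.73. The number of reads per library is not given in the sources used here. The pair of Col-0 salt libraries differed most, with a median absolute log2 difference of 0.164 over all genes against 0.0800 to 0.0939 in the other groups. Over the 48 members this difference was 0.418 in the Col-0 salt pair against 0.155 to 0.253 in the others, and 35 members were higher in library 1 of that pair. Of 12 root markers and 8 shoot and leaf markers, 0 were at 0 in any group. Their summed FPKM was 1248 and 1271 for root and 19315 and 19873 for shoot in Col-0 control, against 1227 to 1370 and 20173 to 22189 in smeb control. In salt it was 775 and 824 for root and 7885 and 9932 for shoot in Col-0, against 641 to 815 and 12560 to 14169 in smeb. The root sum and the single markers did not go the same way, since 5 of 10 tested root markers were higher and 2 lower in salt-treated smeb, with a median of 0.32. The part of these tissue markers in the results below was not tested. In whole seedlings, fewer cells of a type and less RNA per cell cannot be told apart.

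Plants that run short of phosphate switch on a set of genes through the transcription factor PHR1, which SPX proteins hold back while phosphate is plentiful. These genes release phosphate from lipids and other organic compounds, replace phospholipids by galactolipids and sulfolipids, and raise uptake. The small RNA miR399 silences PHO2, which limits phosphate loading, and the noncoding RNAs IPS1 and AT4 bind miR399 without being cleaved and so blunt it. Drought and salt act in large part through abscisic acid, whose signalling ends in transcription factors that bind G-box-like elements and raise protective proteins such as dehydrins. Genes of both programmes are among the 48.

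Grouped by what is known of them, 4 members belong to phosphate starvation, 6 to dehydration and abscisic acid and 4 to detoxification and redox. Another 8 encode enzymes of small molecules, 6 kinases and receptor-like proteins, 3 transporters and 3 proteins of growth and development. The last 14 are 8 with other annotations and 6 uncharacterised genes. RefSeq annotates 47 as protein-coding, AT4 and IPS1 included, and AT1G20390 as a pseudogene. They lie on all 5 nuclear chromosomes, with 11, 6, 9, 7 and 15 on chromosomes 1 to 5. Mean FPKM ran from 2.05 (GSTU11) to 404 (RD29A), with a median of 12.8. All 48 reached 1 FPKM in at least 2 libraries and so were tested where a test applies, and 0 were listed at 0 in any library.

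**Figure D1:**
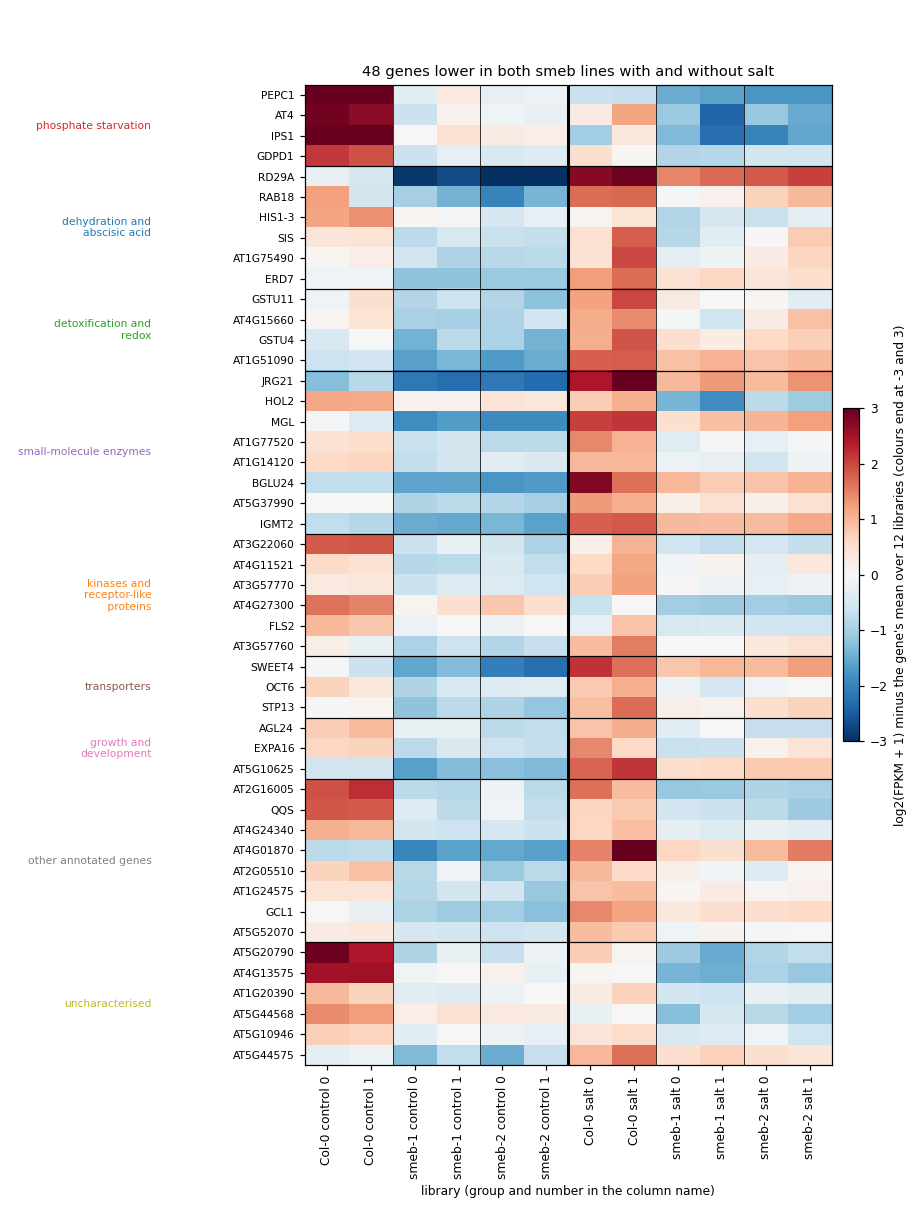
Each row is a member, grouped by role, and each column a library. Colour gives log2(FPKM + 1) minus the gene's mean over the 12 libraries. In each treatment the Col-0 columns are redder than the smeb columns, and salt columns are bluer for the phosphate starvation genes and redder for most others.

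In control, both Col-0 libraries lay above all 4 smeb libraries for 48 of 48 members, where 26.6% of the 20251 tested genes did so. In salt the same held for 45 of 48, against 22.5% of tested genes. The rule used these contrasts, so nothing is read from the counts. The 3 exceptions in salt were SIS, AT4G01870 and AT1G75490, for each of which Col-0 library 0 lay below library 1 of smeb-2. The median difference to Col-0, over the mean of both smeb lines, was -1.10 in control and -1.08 in salt on the log2(FPKM + 1) scale. The difference was larger in control for 28 members and larger in salt for 20. It was larger by more than 1 in control for 7 members and in salt for 1, HOL2.

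Just inside the limit of 0.7 were IGMT2, HIS1-3 and AT4G15660, whose weakest of 4 differences were -0.70, -0.71 and -0.71. Just outside were AT4G37220, AT1G72060 and AT3G56260, at -0.69, -0.69 and -0.68. Membership depended on single libraries. Without Col-0 salt library 0 the rule gave 79 genes, 40 of them among the 48, and without Col-0 salt library 1 it gave 58, with 33 of the 48. Whichever library was left out, 21 members remained in the set.

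**Figure D2:**
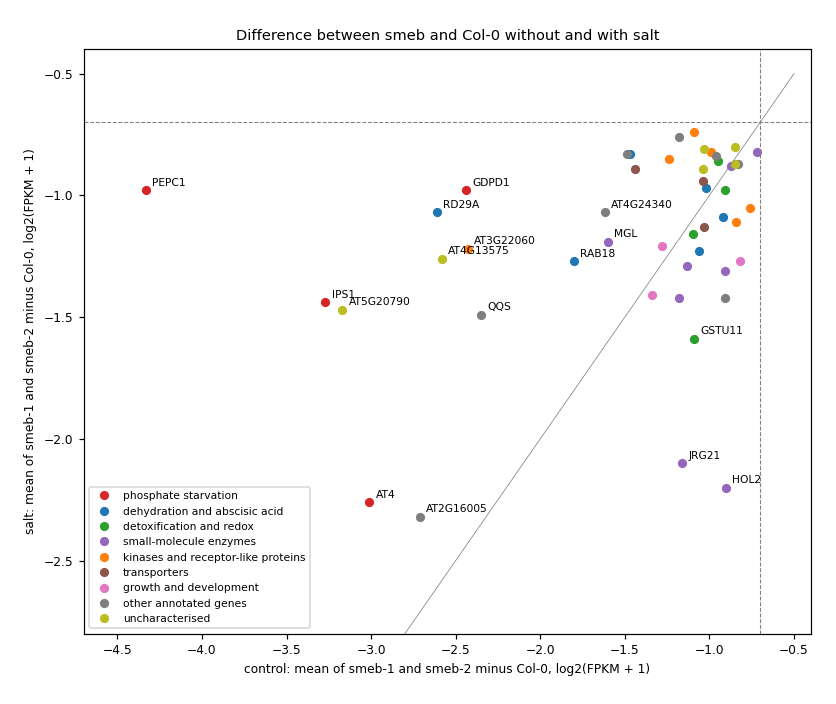
Each point is a member, coloured by role, at its difference between the mean of both smeb lines and Col-0 on the log2(FPKM + 1) scale, in control on the horizontal axis and in salt on the vertical axis. Dashed lines mark a difference 0.7 below Col-0 and the grey line equal differences. PEPC1 (-4.33 and -0.98) lies farthest towards control, and HOL2 (-0.90 and -2.20) and JRG21 (-1.16 and -2.10) towards salt. The added 1 shrinks differences near or under 1 FPKM, where JRG21 stood in smeb control and PEPC1 in smeb salt.

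Salt against control within a genotype sets no smeb library against Col-0, so this contrast was not used by the rule and was tested with limma across all 20251 genes. The same libraries did enter the rule through their group means. More members rose than fell with salt in each genotype, while PEPC1, AT4 and IPS1 of the phosphate starvation group fell in all 3. In Col-0, 25 of 48 rose, 13 fell and 10 did not pass an adjusted p of 0.05, against 34.1% of all tested genes higher and 27.7% lower. In smeb-1, 25 rose, 9 fell and 14 did not pass, against 31.0% and 26.8%. In smeb-2, 28 rose, 7 fell and 13 did not pass, against 32.0% and 27.7%. For Col-0, smeb-1 and smeb-2 the median change of the members was 0.53, 0.49 and 0.73, beside 0.04, 0.03 and 0.03 over all tested genes. The limit of 2 FPKM on the mean of all libraries favours a response in members that reach it in 1 treatment only. In control 6 members had a mean under it (JRG21, GSTU11, AT4G15660, BGLU24, AT4G11521 and AT1G75490), and in salt 3 did (PEPC1, AT4G13575 and QQS). Over the other 39, a choice made after seeing the data, 20 rose and 10 fell in Col-0, 20 rose and 7 fell in smeb-1, and 22 rose and 5 fell in smeb-2. Among all 48, calls went the same way in all 3 genotypes for 22 members that rose and 6 that fell. Another 5 were not called in any. The share of all tested genes with such calls was not computed, so nothing is read from these counts. The 22 include JRG21, GSTU11, AT4G15660 and BGLU24, and the 6 include PEPC1 and AT4G13575, which the limit on the mean favoured.

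Of the 22 members that rose in all 3 genotypes, 16 reached a mean FPKM in both salt-treated smeb lines above that of untreated Col-0. The other 6 were RAB18, GSTU11, AT1G77520, AT4G15660, AT1G24575 and AT5G52070. No share over all tested genes was computed for this either. The difference in salt response between genotypes is built from contrasts that the rule used and was not tested, so responses are set side by side.

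**Figure D3:**
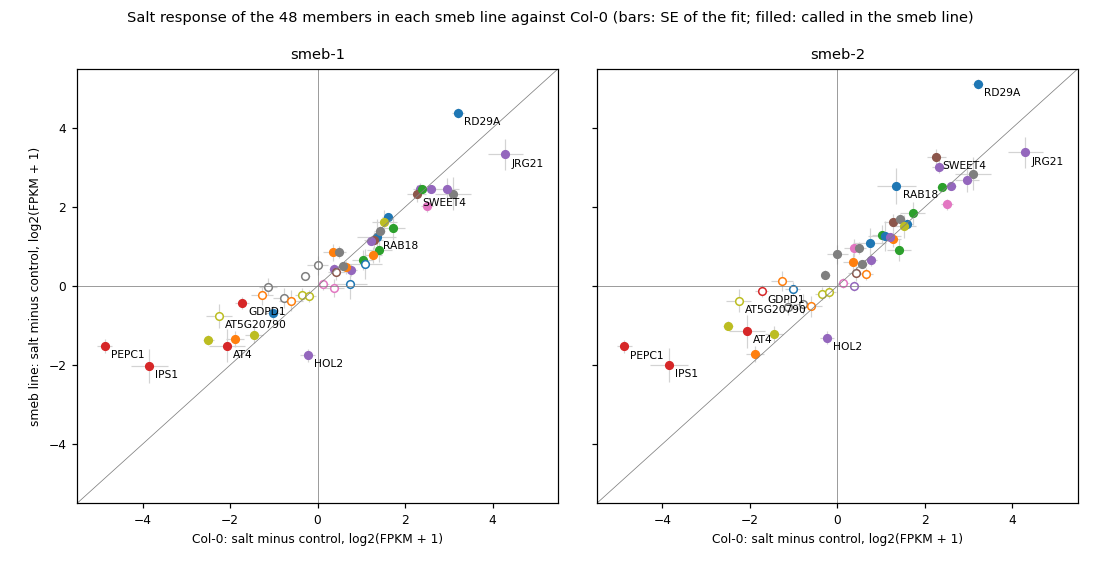
Each point is a member at its salt response, salt minus control on the log2(FPKM + 1) scale, in Col-0 (horizontal) and in smeb-1 or smeb-2 (vertical), with bars for the SE of the fit. Filled points were called in the smeb line, colours give the role as in the plot of differences in control and salt, and the grey diagonal marks equal responses. PEPC1 and IPS1 lie to the left and above the diagonal, RD29A lies above it and HOL2 below it. In salt-treated smeb PEPC1 and IPS1 were at 2.04 FPKM or lower, where the added 1 shrinks a fall.

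PEPC1 and IPS1, both induced by phosphate starvation, had the largest differences of the 48 in control. PEPC1 (AT1G17710, chromosome 1, 6090405 to 6092027, minus strand, TAIR10.1) encodes a phosphatase of phosphocholine and phosphoethanolamine. In control its FPKM was 79.3 and 79.6 in Col-0, 2.43 and 4.38 in smeb-1, and 2.65 and 2.83 in smeb-2. In salt it was 1.79 and 1.71 in Col-0, 0.558 and 0.435 in smeb-1, and 0.299 and 0.292 in smeb-2. The Col-0 mean was thus 23.3-fold that of smeb-1 and 29.0-fold that of smeb-2 in control, and 3.53-fold and 5.93-fold in salt. Both Col-0 libraries were above all smeb libraries in each treatment, and salt-treated Col-0 was below every untreated smeb library. The salt response was -4.87 ± 0.171 in Col-0 (log2 difference ± SE, adjusted p = 2.54e-08), -1.52 ± 0.171 for smeb-1 (adjusted p = 4.53e-05) and -1.53 ± 0.171 for smeb-2 (adjusted p = 3.86e-05). The salt-treated smeb libraries were all under 1 FPKM, where the added 1 shrinks a fall. Mean FPKM went from 79.5 to 1.75 in Col-0, from 3.40 to 0.496 in smeb-1 and from 2.74 to 0.296 in smeb-2.

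AT4 (AT5G03545, chromosome 5, 894582 to 895517, plus strand) and IPS1 (AT3G09922, chromosome 3, 3050989 to 3051530, plus strand) are single-exon genes of noncoding RNAs of 936 and 542 bases. Their miR399 sites are shown because they are the part by which these transcripts are known to act. Below, capitals mark the seed (bases 2 to 8) in miR399b. In the sites they mark the bases that pair with miR399b as A with T or G with C. The sequences, in DNA letters, are from RefSeq for TAIR10.1.
miR399b: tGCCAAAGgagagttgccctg
AT4 site, chr5:895149-895172, plus strand: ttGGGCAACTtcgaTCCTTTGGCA
IPS1 site, chr3:3051224-3051247, plus strand: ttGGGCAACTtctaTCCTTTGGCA

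In both sites 18 of the 21 bases of miR399b found such a partner, with pairs of G and T (U in RNA) not counted. Between its positions 10 and 11, where a cleaved target would be cut, stood 3 unpaired bases. AT4 was at 455 and 398 FPKM in Col-0 control, 38.3 and 66.3 in smeb-1 control, and 55.2 and 51.6 for smeb-2 control. With salt it stood at 72.5 and 140 in Col-0, 27.4 and 10.6 in smeb-1, and 27.2 and 20.7 in smeb-2. IPS1 was likewise highest in Col-0 control. It was at 98.4 and 71.9 FPKM in Col-0 control, 6.49 and 9.32 in smeb-1 control, and 7.92 and 7.74 for smeb-2 control. With salt IPS1 was at 2.68 and 8.50 in Col-0, 2.04 and 0.542 in smeb-1, and 0.882 and 1.58 in smeb-2. All Col-0 libraries lay above the smeb libraries of the same treatment for both RNAs, but in salt Col-0 library 0 of IPS1 was close to the higher smeb-1 library.

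Salt lowered IPS1 by 3.85 ± 0.427 in Col-0 (adjusted p = 3.31e-05), by 2.02 ± 0.427 for smeb-1 (adjusted p = 0.00254) and by 2.0 ± 0.427 for smeb-2 (adjusted p = 0.00254). AT4 fell by 2.07 ± 0.417 in Col-0 (adjusted p = 0.00169), by 1.51 ± 0.417 for smeb-1 (adjusted p = 0.0110) and by 1.14 ± 0.417 for smeb-2 (adjusted p = 0.0382). The smeb-1 call of AT4 was lost without smeb-1 control library 1 (adjusted p = 0.0922) or smeb-1 salt library 1 (adjusted p = 0.0964), in a range of 0.00190 to 0.0964 over 18 alternatives. Its smeb-2 call was lost in 7 of 18 alternatives, with adjusted p from 3.61e-04 to 0.169. These were no filter and leaving out any smeb-2 library or either Col-0 control library.

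GDPD1 (AT3G02040, SRG3 in RefSeq, chromosome 3, 348167 to 350010, minus strand), a phosphodiesterase of the glycerophosphodiesters left when phospholipids are broken down, overlaps AT3G02030 on the other strand. It was at 76.0 and 65.9 FPKM in Col-0 control, 10.4 and 14.1 in smeb-1 control, and 12.0 and 12.6 for smeb-2 control. After salt it was at 24.0 and 17.7 in Col-0, 8.64 and 8.90 in smeb-1, and 11.2 and 11.2 in smeb-2. Salt lowered it by 1.73 ± 0.151 in Col-0 (adjusted p = 6.67e-06), and it was at -0.12 ± 0.151 for smeb-2 (adjusted p = 0.510). In smeb-1 it fell by 0.43 ± 0.151 (adjusted p = 0.0342), a call lost with no filter (0.0585) and without smeb-1 control library 1 (0.267), smeb-1 salt library 0 (0.115) or smeb-1 salt library 1 (0.0909), in a range of 0.0101 to 0.267. Over these 4 genes the median difference of the smeb mean to Col-0 was -3.14 in control and -1.21 in salt.

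**Figure D4:**
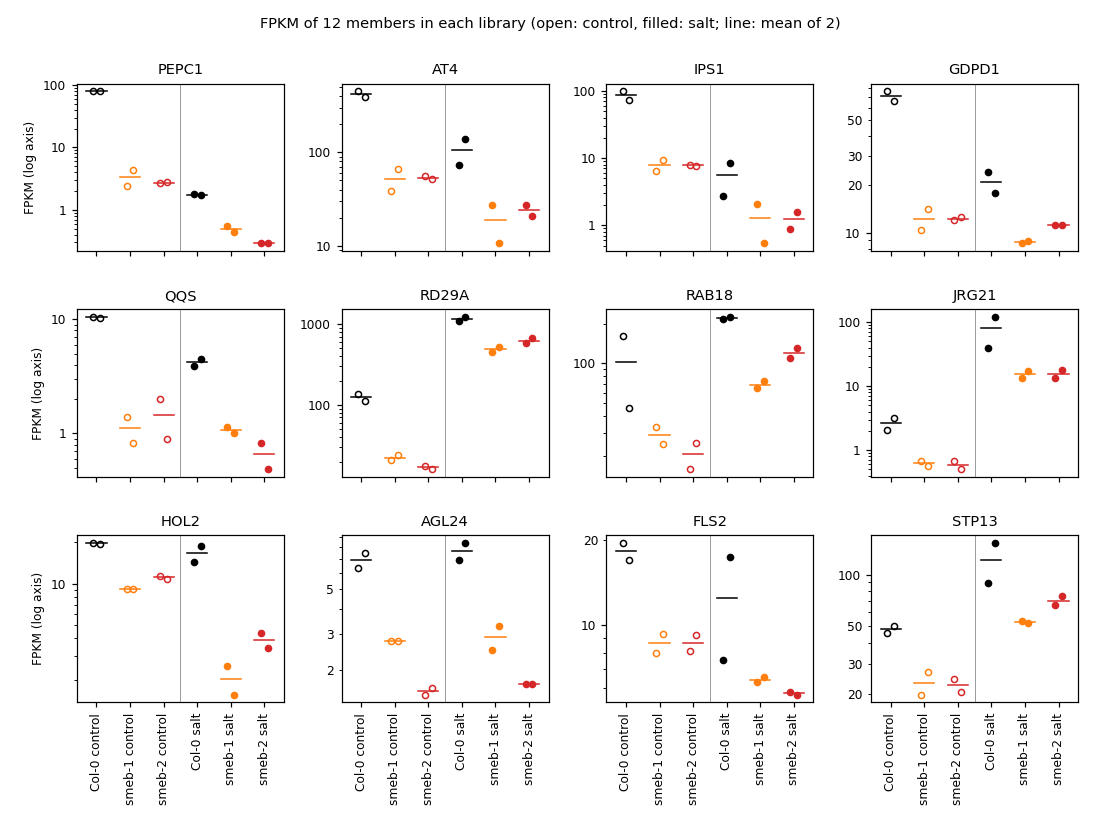
FPKM of 12 members in each library on a log axis, with a line at the mean of the 2 libraries of each group, open circles for control and filled circles for salt. PEPC1, IPS1 and GDPD1 drop from Col-0 control to all other groups, RD29A and JRG21 are raised by salt in every genotype, and HOL2 is at 14.5 and 18.9 in Col-0 salt against 1.56 to 4.38 in smeb salt.

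The promoters of AT4 and GDPD1 are shown because they hold the P1BS element, the sequence PHR1 binds, searched as GNATATNC on both strands from 250 bases before the start to 50 after it. Capitals mark the element.
AT4 promoter, chr5:894332-894631, plus strand: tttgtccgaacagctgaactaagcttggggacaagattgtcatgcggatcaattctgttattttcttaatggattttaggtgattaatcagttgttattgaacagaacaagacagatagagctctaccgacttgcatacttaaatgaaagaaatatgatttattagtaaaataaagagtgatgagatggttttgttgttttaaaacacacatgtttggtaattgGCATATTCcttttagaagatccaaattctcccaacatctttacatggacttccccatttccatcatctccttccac
GDPD1 promoter, chr3:349961-350260, minus strand: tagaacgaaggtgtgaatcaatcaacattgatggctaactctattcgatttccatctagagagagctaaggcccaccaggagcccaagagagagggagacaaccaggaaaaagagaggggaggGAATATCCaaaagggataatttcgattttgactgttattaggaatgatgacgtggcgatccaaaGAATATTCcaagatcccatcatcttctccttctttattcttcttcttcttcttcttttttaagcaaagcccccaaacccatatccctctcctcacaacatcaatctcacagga

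P1BS stood at -26 in AT4 and at -127 and -63 in GDPD1, counted from the transcript start. The letters were not found in these windows of PEPC1 and IPS1. Of the 48 members, 6 held P1BS, or 12.5%, against 6.09% of 32816 promoters of the same length. The other 4 were GSTU11, AT5G37990, AT5G10946 and IGMT2. A match is a description of the letters and not a site of binding.

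The wider pathway was described with a list of 52 phosphate starvation genes, of which 46 were tested. Of the 42 that are not members, 28 fell in untreated smeb and 2 rose, against 13.0% and 11.6% of all tested genes, with a median of -0.95 beside -0.01 over all genes. In salt, 7 of the 42 fell and 1 rose, against 14.9% and 12.8% of all tested genes, with a median of -0.10 beside -0.03. The salt count of 7 became 3 when only the compared groups were fitted. The 4 members are left out of these counts because the rule chose them for being lower. The same Col-0 libraries enter the rule and these comparisons. The list was chosen with earlier results of these data known, so its counts are no independent support.

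Among the list genes that fell in untreated smeb were SPX1, a phosphate sensor, and PS2, a pyrophosphatase. For Col-0, smeb-1 and smeb-2 the mean FPKM of SPX1 was 147, 27.2 and 23.5, a difference of -2.5 ± 0.179 (adjusted p = 2.57e-05). PS2 was at 114, 8.72 and 7.78 FPKM, a difference of -3.64 ± 0.118 (adjusted p = 3.35e-07). In salt SPX1 was at 60.1, 43.7 and 50.5 FPKM (-0.30 ± 0.179, adjusted p = 0.230) and PS2 at 7.79, 7.71 and 6.97 (-0.06 ± 0.118, adjusted p = 0.713). Both genes met the limit of the rule in control and not in salt. PHR1 itself was at 27.3 FPKM in Col-0 control, 27.3 in smeb-1 and 26.8 in smeb-2 (-0.01 ± 0.0731, adjusted p = 0.922). PHO2 was the other way, at 28.3, 43.5 and 38.9 FPKM (0.53 ± 0.156, adjusted p = 0.0343).

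**Figure D5:**
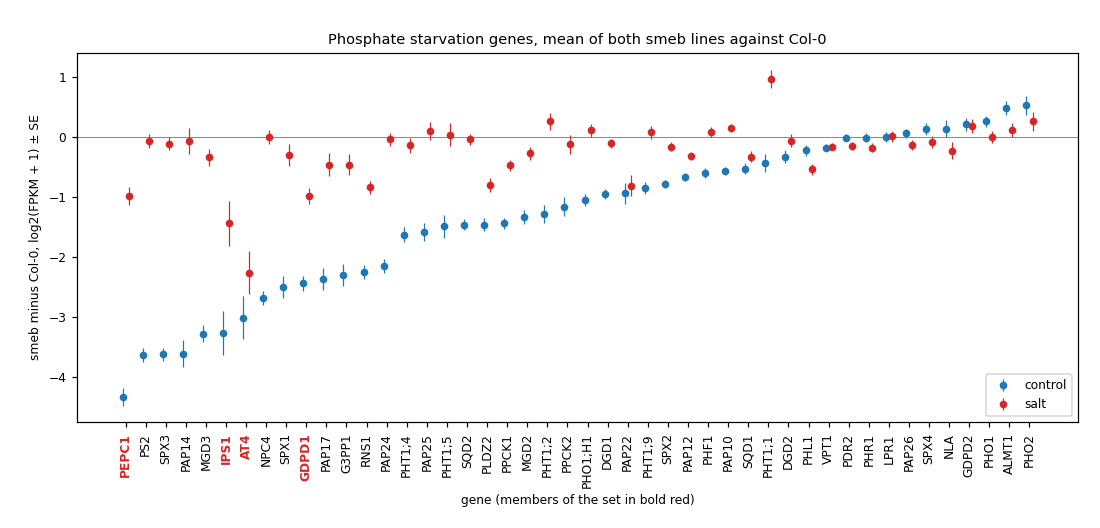
Difference between the mean of both smeb lines and Col-0 for the 46 tested genes of the phosphate starvation list, in control (blue) and in salt (red), on the log2(FPKM + 1) scale with the SE of the fit as bars. Genes are ordered by the control value and members of the set are in bold red. Most blue points lie below 0, while red points lie nearer to 0 except for a few genes, among them the members AT4 (-2.26) and IPS1 (-1.44).

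The member that salt raised to the highest level was RD29A. RD29A (AT5G52310, LTI78 in RefSeq, chromosome 5, 21240717 to 21243644, plus strand), a hydrophilic protein and the standard marker of osmotic stress, was at 137 and 111 FPKM in Col-0 control. It was at 20.6 and 24.0 in smeb-1 control and at 17.7 and 16.2 in smeb-2 control. In salt it reached 1079 and 1224 in Col-0, 445 and 524 in smeb-1, and 578 and 670 in smeb-2. The Col-0 mean was 5.56-fold and 7.31-fold that of smeb-1 and smeb-2 in control, and 2.38-fold and 1.85-fold in salt. Salt raised RD29A by 3.21 ± 0.129 in Col-0 (adjusted p = 5.28e-08), 4.38 ± 0.129 for smeb-1 (adjusted p = 1.29e-08) and 5.12 ± 0.129 for smeb-2 (adjusted p = 4.95e-09).

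RAB18 (AT5G66400, chromosome 5, 26518277 to 26519447, minus strand), a dehydrin induced by abscisic acid, varied widely in Col-0 control, at 160 and 45.6 FPKM. The other control libraries had 33.2 and 24.4 for smeb-1 and 15.9 and 25.0 for smeb-2. With salt it was at 216 and 225 in Col-0, 64.9 and 73.2 in smeb-1, but at 109 and 132 in smeb-2. It rose by 2.53 ± 0.448 for smeb-2 (adjusted p = 8.17e-04). The rises of 1.35 ± 0.448 in the wild type (adjusted p = 0.0239) and 1.25 ± 0.448 for smeb-1 (adjusted p = 0.0363) depended on single libraries. The first was lost when only the compared groups were fitted (0.115) and without Col-0 control library 1 (0.46, adjusted p = 0.153), Col-0 salt library 0 (0.0549) or Col-0 salt library 1 (0.0674). The second was lost with no filter (0.0696) and without any 1 of the smeb-1 libraries, with adjusted p between 0.0624 and 0.167. Over 18 alternatives the adjusted p ran from 1.18e-04 to 0.153 in Col-0 and from 8.93e-04 to 0.167 in smeb-1. Without Col-0 control library 0 RAB18 was not a member.

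ERD7, a dehydration-induced protein of membranes, was steadier. It was at 117 and 117 FPKM in Col-0 control and between 55.0 and 59.3 in the 4 smeb control libraries, and at 307 and 411 in Col-0 salt against 167 to 198 in smeb salt. For Col-0, smeb-1 and smeb-2 its rises with salt were 1.60 ± 0.119, 1.74 ± 0.119 and 1.57 ± 0.119, with adjusted p of 2.69e-06 or lower. HIS1-3, a linker histone induced by drought, went the other way in the wild type. It was at 49.6 and 56.5 FPKM in Col-0 control, 14.8 to 22.0 in smeb control, 22.6 and 28.7 in Col-0 salt and 11 to 17.6 in smeb salt. Salt lowered it by 1.02 ± 0.173 in Col-0 (adjusted p = 5.53e-04), and it was at -0.08 ± 0.173 for smeb-2 (adjusted p = 0.701). In smeb-1 it fell by 0.69 ± 0.173 (adjusted p = 0.00670, but 0.0609 without smeb-1 salt library 0, in a range of 9.33e-04 to 0.0609).

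SIS, a salt-induced protein rich in serine, and AT1G75490, an AP2-type factor of the DREB family, were among the members in which the Col-0 salt pair parted widely. SIS was at 31.0 and 81.8 FPKM in Col-0 salt, 29.4 and 30.4 in Col-0 control, 12.6 to 15.8 in smeb control and 11.9 to 38.7 in smeb salt. AT1G75490 was at 2.54 and 9.33 FPKM in Col-0 salt, 1.71 and 2.03 in Col-0 control, 0.371 to 0.752 in smeb control and 1.18 to 3.10 in smeb salt. Without Col-0 salt library 1 neither was a member. The salt response of SIS in Col-0, 0.74 ± 0.381 (adjusted p = 0.119), became 1.42 (adjusted p = 0.00143) without Col-0 salt library 0, in a range of 0.00143 to 0.889.

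In a list of 23 abscisic acid and osmotic stress genes, all of them tested, 21 are not members. Of these, 15 fell and 1 rose in untreated smeb, against 13.0% and 11.6% of all genes, and 13 fell and 0 rose in salt, against 14.9% and 12.8%. The salt count became 8 when only the compared groups were fitted. Their medians were -0.75 and -0.51, beside -0.01 and -0.03. With salt, all 21 rose in each genotype, against 34.1%, 31.0% and 32.0% of all tested genes in Col-0, smeb-1 and smeb-2. The list is of osmotic stress genes, so a rise with salt was likely beforehand. It was also chosen with earlier results of these data known, so its counts are no independent support. NCED3, which makes the rate-limiting enzyme of abscisic acid synthesis, was at 3.81 FPKM in Col-0 control, 1.52 in smeb-1 and 1.66 in smeb-2 (-0.89 ± 0.213, adjusted p = 0.0134). In salt NCED3 was at 28, 8.84 and 16.4 FPKM (-1.07 ± 0.213, adjusted p = 0.00653).

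The 4 members of detoxification and redox rose with salt in all 3 genotypes. Of all tested genes, 34.1%, 31.0% and 32.0% rose in Col-0, smeb-1 and smeb-2. GSTU11 and AT4G15660 had a mean under 2 FPKM over the control libraries, so the limit on the mean favoured their rise. Some calls in smeb rested on single libraries. The smeb-1 call of GSTU11 (0.90, adjusted p = 0.0207) was lost without smeb-1 control library 0 (0.110) or smeb-1 salt library 0 (0.107), in a range of 0.00633 to 0.110. Its smeb-2 call (0.91, adjusted p = 0.0181) was lost without smeb-2 control library 1 (0.113) or smeb-2 salt library 0 (0.114), in a range of 0.00374 to 0.114. The smeb-1 call of AT4G15660 (0.66, adjusted p = 0.0431) was lost in 5 of 18 alternatives, in a range of 0.0170 to 0.276. These were no filter, quantile normalization and leaving out smeb-1 control library 0 or 1 or smeb-1 salt library 0. GSTU4, a tau-class glutathione transferase that conjugates toxic compounds, was at 17.4 and 24.5 FPKM in Col-0 control, 8.56 to 13.6 in smeb control, 53.2 and 93.4 in Col-0 salt and 28.6 to 40.5 in smeb salt. Its relative GSTU11 was near the lower limit, at 1.29 and 2.46 in Col-0 control and 0.0578 to 0.604 in smeb control. GSTU11 was at 4.68 and 8.81 FPKM in Col-0 salt and 0.974 to 1.98 in smeb salt. The metal-binding family gene AT1G51090 had libraries that lay close together, with 16.5 and 17.0 FPKM in Col-0 control, 7.31 to 9.40 in smeb control, 91.6 and 92.8 in Col-0 salt and 47.3 to 54.4 in smeb salt. It rose by 2.39 ± 0.103 in Col-0 (adjusted p = 8.05e-08), 2.46 ± 0.103 for smeb-1 (adjusted p = 6.97e-08) and 2.5 ± 0.103 for smeb-2 (adjusted p = 5.53e-08). AT4G15660 has near-identical neighbours in the genome that could share its reads, so its value is uncertain. Reads of IGMT2 may likewise be shared with near copies. It is an O-methyltransferase of indole glucosinolates.

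Of the 8 enzymes of small molecules, salt raised 7 in Col-0, 7 in smeb-1 but 6 in smeb-2. The shares of all tested genes that rose were 34.1%, 31.0% and 32.0%, in the same order. AT1G77520 lost its smeb-1 call in 11 of 18 alternatives. AT1G14120, not called in smeb-2, lost its Col-0 call in 6 and its smeb-1 call in 2. The remaining enzymes kept their salt calls in every alternative. JRG21 and BGLU24 had a mean under 2 FPKM over the control libraries, so the limit on the mean favoured their rise. JRG21 (AT3G55970, chromosome 3, 20766735 to 20769410, minus strand), an oxygenase that hydroxylates and so inactivates jasmonate, rose most of the 8 enzymes. It was at 2.07 and 3.17 FPKM in Col-0 control, 0.678 and 0.557 in smeb-1 control, and 0.677 and 0.508 for smeb-2 control. Salt-treated libraries gave 39.4 and 121 in Col-0, 13.6 and 17.1 in smeb-1, and 13.5 and 18.0 in smeb-2, so that even the lower Col-0 library was above all smeb libraries. The Col-0 mean was 4.25-fold and 4.43-fold that of smeb-1 and smeb-2 in control, and 5.23-fold and 5.10-fold in salt. The rise was 4.29 ± 0.401 in Col-0 (adjusted p = 1.03e-05), 3.33 ± 0.401 for smeb-1 (adjusted p = 7.06e-05) and 3.38 ± 0.401 for smeb-2 (adjusted p = 5.66e-05). BGLU24, a beta-glucosidase, was at 1.12 and 1.13 FPKM in Col-0 control, 0.0529 to 0.189 in smeb control, 23.5 and 10.1 in Col-0 salt and 4.97 to 6.28 in smeb salt. MGL, a lyase that breaks down methionine, was at 14.5 and 11 in Col-0 control, 3.25 to 4.0 in smeb control, 64.8 and 70.0 in Col-0 salt and 21.2 to 36.4 in smeb salt. MGL rose by 2.33 ± 0.157 in Col-0 (adjusted p = 1.20e-06), 2.46 ± 0.157 for smeb-1 (adjusted p = 9.90e-07) and 3.02 ± 0.157 for smeb-2 (adjusted p = 2.26e-07).

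HOL2 (AT2G43920, chromosome 2, 18189004 to 18191348, minus strand), a methyltransferase of the family that makes methyl halides, parted from the others. It was at 19.9 and 19.5 FPKM in Col-0 control, 9.10 and 9.08 in smeb-1 control, and 11.4 and 10.8 for smeb-2 control. In salt it was at 14.5 and 18.9 in Col-0, 2.52 and 1.56 in smeb-1, and 4.38 and 3.42 in smeb-2. Salt lowered HOL2 by 1.75 ± 0.162 for smeb-1 (adjusted p = 1.22e-05) and by 1.31 ± 0.162 for smeb-2 (adjusted p = 7.48e-05). In Col-0 it was at -0.23 ± 0.162 (adjusted p = 0.237). Among members it alone was called lower in both smeb lines and not in Col-0, and the difference between genotypes was not tested. How many of all tested genes had such calls was not computed, so nothing is read from this pattern.

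Among kinases and receptor-like proteins, AT3G22060 stood farthest from Col-0 in control. In Col-0 control it had 34.4 and 35.1 FPKM, against 5.36 and 7.61 in smeb-1 control, and 5.73 and 4.22 for smeb-2 control. With salt its values were 9.99 and 18.9 in Col-0, 5.58 and 4.96 in smeb-1, and 5.93 and 5.01 in smeb-2. Salt lowered it by 1.27 ± 0.247 in Col-0 (adjusted p = 0.00135), while it was at -0.24 ± 0.247 for smeb-1 (adjusted p = 0.425) and 0.12 ± 0.247 for smeb-2 (adjusted p = 0.690). FLS2, the receptor for bacterial flagellin, was at 19.5 and 17.0 FPKM in Col-0 control, 7.99 to 9.32 in smeb control, 7.55 and 17.4 in Col-0 salt and 5.69 to 6.58 in smeb salt. Its Col-0 salt libraries disagreed, and without library 1 it was not a member. The lectin-type kinase gene AT4G27300 fell with salt in each genotype, by 1.89 ± 0.205 in Col-0 (adjusted p = 2.80e-05), 1.35 ± 0.205 for smeb-1 (adjusted p = 3.26e-04) and 1.72 ± 0.205 for smeb-2 (adjusted p = 5.80e-05).

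All 3 transporter genes carry organic solutes across membranes. STP13 (MSS1 in RefSeq), a hexose and proton symporter, was above the 19.8 to 26.7 FPKM of smeb control in both Col-0 control libraries, and stood at 89.3 and 154 in Col-0 salt and 51.8 to 74.9 in smeb salt. The sugar transporter SWEET4 was at 12.2 and 7.84 FPKM in Col-0 control, 1.87 to 4.59 in smeb control, 60.5 and 42.3 in Col-0 salt and 23.6 to 31.9 in smeb salt. Both rose with salt in every genotype, SWEET4 by 2.26 ± 0.213 in Col-0 (adjusted p = 1.11e-05). OCT6, an organic cation transporter, was not called in any, at 0.43 ± 0.186 in Col-0 (adjusted p = 0.0670), 0.35 ± 0.186 for smeb-1 (adjusted p = 0.129) and 0.32 ± 0.186 for smeb-2 (adjusted p = 0.168). The Col-0 value of OCT6 passed in 4 of 18 alternatives, each without 1 library, and the smeb-1 value without smeb-1 control library 1 (0.58). Its smeb-2 value passed when only the compared groups were fitted (adjusted p = 0.0464).

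AGL24, a MADS-box factor that promotes flowering, was not called with salt in any genotype, and both smeb-2 libraries were below both smeb-1 libraries in each treatment. It was at 6.31 and 7.49 FPKM in Col-0 control, 2.78 and 2.77 in smeb-1 control, and 1.52 and 1.63 for smeb-2 control. After salt it stood at 6.92 and 8.42 in Col-0, 2.5 and 3.31 in smeb-1, and 1.72 and 1.72 in smeb-2. EXPA16, an expansin that loosens cell walls, was at 23.7 and 24.4 FPKM in Col-0 control, 8.27 to 10.9 in smeb control, and 42.4 and 23.1 in Col-0 salt. In salt EXPA16 was at 9.05 and 9.16 in smeb-1 and at 16.5 and 20.4 in smeb-2, and rose by 0.95 ± 0.228 for smeb-2 (adjusted p = 0.00513). The salt response of EXPA16 was -0.06 ± 0.228 for smeb-1 (adjusted p = 0.842) and 0.37 ± 0.228 in Col-0 (adjusted p = 0.185). The latter became 0.79 (adjusted p = 0.00148) without Col-0 salt library 1, in a range of 0.00148 to 0.775.

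Of the members with other annotations, AT2G16005, of a family with a lipid recognition domain, differed most. It was at 16.5 and 20.8 FPKM in Col-0 control, 1.71 and 1.60 in smeb-1 control, and 3.20 and 1.67 for smeb-2 control. In salt it was at 13.6 and 7.90 in Col-0, 1.13 and 1.16 in smeb-1, and 1.49 and 1.38 in smeb-2. QQS, a gene found in Arabidopsis thaliana alone that is known to shift carbon between starch and protein, was at 10.5 and 10.3 FPKM in Col-0 control, 1.39 and 0.832 in smeb-1 control, and 1.99 and 0.888 for smeb-2 control. In salt QQS was at 3.91 and 4.48 in Col-0, 1.13 and 1.01 in smeb-1, and 0.821 and 0.489 in smeb-2. Salt lowered QQS by 1.13 ± 0.210 in Col-0 (adjusted p = 0.00101), and it was at -0.02 ± 0.210 for smeb-1 (adjusted p = 0.953) and -0.53 ± 0.210 for smeb-2 (adjusted p = 0.0521). The smeb-2 value of QQS passed in 6 of 18 alternatives, in a range of 0.00565 to 0.422. Among these were a pseudocount of 0.1 (0.0398), both other scalings (0.0473 and 0.0415) and leaving out smeb-1 control library 1 (0.0498) or smeb-2 control library 1 (-0.86, adjusted p = 0.00565).

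The uncharacterised genes AT5G20790 and AT4G13575 were highest in Col-0 control, as were the phosphate starvation members. AT5G20790 was at 62.6 and 43.7 FPKM in Col-0 control, 3.48 and 6.25 in smeb-1 control, and 4.15 and 6.32 for smeb-2 control. With salt it was at 12.9 and 7.86 in Col-0, 2.89 and 1.92 in smeb-1, and 3.51 and 4.01 in smeb-2. AT4G13575 was at 24.5 and 25.0 FPKM in Col-0 control, 2.83 to 3.85 in smeb control, 3.62 and 3.49 in Col-0 salt and 0.625 to 1.32 in smeb salt. For each gene both Col-0 control libraries were above every other library. AT4G01870 and AT5G10625, by contrast, were highest in Col-0 salt. AT4G01870 was at 25.7 and 26.3 FPKM in Col-0 control, 10.9 to 15 in smeb control, 129 and 408 in Col-0 salt and 63.8 to 135 in smeb salt. AT5G10625 was at 6.19 and 6.28 FPKM in Col-0 control, 2.45 to 3.47 in smeb control, 34.3 and 46.1 in Col-0 salt and 14.3 to 17.3 in smeb salt. With salt, AT5G20790 fell by 2.26 ± 0.296 in Col-0 (adjusted p = 1.02e-04) and AT4G13575 by 2.5 ± 0.124 (adjusted p = 1.78e-07).

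The smeb lines differed from each other in 0 of 48 members in control and 0 in salt by limma, where 0.104% and 0.286% of all tested genes were called. The rule asked both lines to lie below Col-0, so likeness between them was partly selected. At an unadjusted p under 0.05, 3 members were lower and 0 higher in smeb-2 in control, and 7 were higher and 1 lower in salt, near the 6.74% and 13.1% of all tested genes. No other tool was run. The smallest adjusted p in control was that of AGL24 (-0.55 ± 0.130, adjusted p = 0.313), and AGL24 was at -0.51 ± 0.130 in salt (adjusted p = 0.143). In salt, HOL2 was at 0.70 ± 0.162 (adjusted p = 0.120), EXPA16 at 0.94 ± 0.228 (adjusted p = 0.134) and SIS at 1.0 ± 0.381 (adjusted p = 0.30), all higher in both smeb-2 libraries. Without Col-0 salt library 0 these 3 passed, with adjusted p of 0.0342, 0.00830 and 0.0478, and without library 1 with 0.0344, 0.00831 and 0.0478. These libraries enter this comparison only through the shared estimate of the spread. Over 18 alternatives the adjusted p ran from 0.0342 to 0.371 for HOL2, from 0.00830 to 0.523 for EXPA16 and from 0.0478 to 0.783 for SIS.

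The members have fewer exons than other expressed genes. The median was 2.5 exons against 4 over all tested genes, and 24 members had at most 2 exons, as did 32.6% of all tested genes. Single-exon genes, which hold no intron to splice, were 22.9% of members and 17.3% of tested genes. The median transcript was 1286 bases long against 1711. These are descriptions with no test. Of the 48, 9 overlap a gene on the opposite strand, and since strand use is not given in the sources used here, reads of the overlap cannot be told apart. They are GDPD1, RAB18, MGL, SIS, OCT6, AT3G57770, AT4G27300, FLS2 and GCL1. In all, 12 members overlap another gene. AT4G13575, AT5G10946 and AT5G52070 do so on their own strand, where reads of the overlap cannot be told apart either. The kinase genes AT3G57760 and AT3G57770 lie 297 bases apart on chromosome 3, and the antisense gene AT3G57765 overlaps AT3G57770. AT5G44568 and AT5G44575 lie 11498 bases apart on chromosome 5.

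Other promoter elements were counted in the same windows on both strands. The G-box (CACGTG) stood in 8 members, or 16.7% against 6.89% of all promoters, among them MGL, SWEET4, HIS1-3 and AT2G16005. The abscisic acid element ABRE (ACGTGNC), which can overlap the G-box, stood in 6, or 12.5% against 9.46%, RAB18 among them. The W-box core (TTGAC), known to be bound by WRKY factors, stood in 18 members, or 37.5%, and in 16412 of the 32816 promoters. The CAMTA-bound core (CGCGT) stood in 10.4% against 8.76%, RD29A among them, and the GCC box (GCCGCC) in 4.17% against 2.72%. The evening element was found in 6.25% against 5.28%, the telo box in 2.08% against 6.21% and the heat shock element in 10.4% against 11.3%.

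The authors' deposited table of SmEb-dependent splicing events lists 137 events at 131 genes, and 0 of them are at members. Only 0.647% of all tested genes are listed there, so nothing is read from the 0. Its read counts are headed smeb_Na and Col-0, so untreated smeb is not covered. Their deposited table of SmEb-independent events lists 208 events at 199 genes, with 3 at 2 members, HOL2 and AT2G05510. It lists 0.963% of all tested genes. At HOL2 (chromosome 2, 18190429 to 18190549) the authors' deposited table gives an alternative start event between Col-0 salt and Col-0 control, at an FDR of 0.00141. In the authors' deposited table, 208 pooled reads skipped the event and 1 did not in salt, a skipped share of 99.5% (Wilson 95% interval 97.3 to 99.9). In control 173 skipped it and 34 did not, a share of 83.6% (77.9 to 88). These intervals cover counting error only. AT2G05510, a glycine-rich protein gene at 120 and 140 FPKM in Col-0 control against 34.0 to 69.9 in smeb control, has an intron retention and an alternative 3' splice site event in the authors' deposited table, at FDRs of 0.00214 and 0.00532. The intervals of the skipped share overlap for both, at 1.11 to 2.04 in salt and 0.976 to 2.06 in control for the intron, and 5.29 to 22.6 and 7.25 to 29.7 for the splice site, all in percent.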

How the data were processed

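RNA was sequenced from 12 libraries of whole seedlings. Trimmomatic 0.32, TopHat2 2.0.13 and the build TAIR10 are named in the submitters' processing notes. The authors deposited FPKM per gene. How FPKM was computed, with which annotation and with what use of strand, is not given in the sources used here, nor is the number of reads, so depth is known only in relative terms. The authors also deposited splicing tables with pooled read counts and an adjusted p-value and FDR per event. Columns were assigned to groups by name, and the digit ending a name could not be tied to the labels' replicate numbers.

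FPKM values were put on the log2(FPKM + 1) scale and fitted with limma 3.58.1 (R 4.3.3, trended variance) as 6 group means. This was done for 20251 genes at 1 FPKM or more in at least 2 libraries. P-values were adjusted by Benjamini and Hochberg over all of them, with calls under 0.05. With 2 libraries per group, 6 residual degrees of freedom come from all groups together. Fits were tested on simulated data. The members and gene lists were chosen with earlier results of these data known. Members were named by the size of their differences and salt responses, list membership, nearness to the limit, splicing events or neighbouring position, and further members were named after their values were seen to show each role group. Identifiers matched RefSeq TAIR10.1 for 32817 of 33559 genes. Alternatives were another pseudocount, no filter, 2 other scalings, a fit of only the groups compared, a replicate block and leaving out each library.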

Additional observations from a re-analysis of the deposited data

Results flagged for a closer look

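AT4G24340, of the phosphorylase superfamily, moved in opposite directions with salt. It was at 14.3 and 13.7 FPKM in Col-0 control and 10.3 and 12.6 in Col-0 salt, a salt response of -0.28 ± 0.105 (limma, adjusted p = 0.0421). In smeb-1 it was at 3.95 and 3.78 in control and 5.13 and 4.50 in salt (0.26 ± 0.105, adjusted p = 0.0603). In smeb-2 it was at 4.13 and 3.71 in control and 5.24 and 4.81 in salt (0.29 ± 0.105, adjusted p = 0.0350). Every salt library was below both control libraries in Col-0 and above both in each smeb line. The difference between genotypes was not tested. The Col-0 call was lost in 13 of 18 alternatives and the smeb-2 call in 8.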

How the results depend on the processing

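The count of members moved with the rule. It was 48, and became 88 with a pseudocount of 0.1, 159 with a limit of 0.5, 12 with a limit of 1, and 44 to 79 when 1 library was left out, the 79 without Col-0 salt library 0. Called members with salt were 21 to 26 higher and 12 to 14 lower in Col-0 when 1 library was left out, 18 to 27 and 7 to 11 in smeb-1, and 23 to 29 and 6 to 8 in smeb-2. Calls held in all 18 alternatives for 32 of 38 members in Col-0, 23 of 34 in smeb-1 and 28 of 35 in smeb-2, and 0 reversed. Between the smeb lines in salt, 0 to 3 members were called, the 3 without Col-0 salt library 0 or 1. List genes lower in smeb, without the members, were 27 to 31 in control and 6 to 10 in salt for phosphate starvation, and 12 to 16 and 10 to 16 for abscisic acid. With the members, which the rule chose for being lower, these ranges were 31 to 35 and 9 to 13, and 14 to 18 and 11 to 17. Fitting only the compared groups gave 6 phosphate starvation genes in salt with the members and 3 without. The alternatives on lists were chosen after seeing the data. Jasmonate genes were 11 to 27 in control, with 15 and 11 without Col-0 control library 0 and 1, and 5 to 11 in salt, the 11 without Col-0 salt library 0.

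Libraries sharing a digit did not deviate together, with correlations from -0.125 to 0.112 over 15 pairs of groups. With the digit as a replicate block, members called higher and lower with salt were 26 and 12 in Col-0, 25 and 9 in smeb-1 and 28 and 8 in smeb-2. Under the block, SIS in Col-0 (0.74, adjusted p = 0.0466) and QQS in smeb-2 (-0.53, adjusted p = 0.0326) passed. The design rests on 2 libraries per group, and depth in reads is unknown.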

Other observations

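None of the members is on the lists below, which were chosen with earlier results of these data known. JRG21, which inactivates jasmonate, and IGMT2, an enzyme of indole glucosinolates, are members but were not listed. Between smeb and Col-0, 13.0% of all tested genes fell and 11.6% rose in control and 14.9% and 12.8% in salt. Of 36 jasmonate genes, 23 fell and 1 rose in control (median -0.52), and 7 fell and 4 rose in salt (median -0.06). The control count was 15 without Col-0 control library 0 and 11 without library 1. Of 9 genes of xyloglucan endotransglucosylases, which remodel cell walls, 6 rose in control and 5 in salt, and 0 fell in either (medians 0.77 and 0.64). Of 11 flavonoid and anthocyanin genes, 4 rose in control and 8 in salt, and 0 fell in either, with a median of -0.20 in control, against the direction of the calls, and 0.72 in salt. Of 8 glucosinolate genes, 4 fell in control, while 5 rose and 1 fell in salt (medians -0.28 and 0.52). Medians over all tested genes were -0.01 in control and -0.03 in salt.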
